A study of Mus musculus with 4 samples.

Results

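The cytosolic ribosomal protein genes code for the proteins of the small (40S) and large (60S) subunits of the ribosome that translates nuclear mRNA. Members were the protein-coding genes whose symbols follow the Rpl or Rps pattern of a number with an optional letter, together with Rplp0, Rplp1, Rplp2 and Rpsa. The rule found 84 genes among 45777 in the table, 52 of the 60S subunit and 32 of the 40S subunit. Of these, 80 (48 and 32) reached an FPKM (fragments scaled to transcript length and library size) of 1 in at least 1 of the 4 libraries and were compared with the other genes that did so, 11927 in all. No measured value chose the members, but the filter left out Rpl3l, Rpl10l, Rpl32l and Rpl39l. Members lay on 19 chromosomes, with 14 on chromosome 7, 8 on chromosome 17 and 7 on chromosome 11.

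RNA came from primary hepatocytes, the main cells of the liver, of mice with (WT) or without (KO) an intact gene for dual specificity phosphatase 6 (Dusp6), which inactivates the kinase ERK. After 3 h in culture the cells were left untreated or received 0.5 mM palmitic acid with 1 mM oleic acid for 24 h. Each of the 4 groups, untreated WT, untreated KO, fatty acid-treated WT and fatty acid-treated KO, holds 1 library. The knockout allele, the strain, sex and age of the mice, the number of animals behind a culture and any vehicle given to the untreated cells are not stated in the labels. With 1 library per group there is no replicate check and no test, and the condition cannot be told apart from the library.

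Ribosomal protein mRNAs are among the most abundant of any cell, since each ribosome takes a single copy of nearly every protein and surplus proteins are degraded. Many of them begin with a terminal oligopyrimidine (TOP) tract, a C at the cap followed by further pyrimidines, through which mTORC1 and Larp1 control their translation and stability. The ERK pathway also reaches the ribosome through RSK and S6 kinases, which phosphorylate the 40S protein Rps6.

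RefSeq promoter sequences (build GRCm38.p6, which is mm10) were available for 64 of the 84 members. A C at the annotated start followed by at least 4 pyrimidines was found in 14 of 64 members (21.9%), beside 813 of 27025 genes with a promoter entry (3.01%) and 2.81% of the other compared genes. A run of at least 8 pyrimidines within 15 bases of the start was found in 30 of 64 members (46.9%), beside 16.5% of all genes. The windows shown first are 30 bases long, with the annotated start as the base after the 15th. Capitals mark the pyrimidine run that holds the start base. They show the starts of members that the results turn on, the last being one with no such run. Rpl14 is at chr9:120571502-120571531 (plus strand), Rplp2 at chr7:141447636-141447665 (plus), Rps27 at chr3:90213634-90213663 (minus), Rps6 at chr4:86857353-86857382 (minus), Rpl35 at chr2:39005117-39005146 (minus), Rps24 at chr14:24490663-24490692 (plus) and Rps16 at chr7:28350674-28350703 (plus).
Rpl14: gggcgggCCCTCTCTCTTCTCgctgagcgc
Rplp2: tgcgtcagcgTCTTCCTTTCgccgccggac
Rps27: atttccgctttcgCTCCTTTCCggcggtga
Rps6: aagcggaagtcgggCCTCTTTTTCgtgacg
Rpl35: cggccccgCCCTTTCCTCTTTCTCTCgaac
Rps24: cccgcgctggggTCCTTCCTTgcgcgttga
Rps16: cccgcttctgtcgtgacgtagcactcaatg
The first 5 of these starts have the C, Rps24 has the run with a T at the annotated start, and Rps16 starts at an A outside any run.

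The 300 bases from 250 before to 50 after each start were searched on both strands for CCGGAA, the core bound by ETS family factors such as GABP. It was found in 35 of 64 members (54.7%), beside 16.7% of all genes and 33.1% of the other compared genes. ATGGCG, the core of the YY1 motif, was found in 32.8% of members, beside 10.2% and 18.6%. TATAAA was found in 12.5%, beside 15.7% and 9.51%. Several motifs in 1 gene were counted once, and matches say nothing about binding. The 100 bases before the start are shown for 3 members with CCGGAA or its complement in capitals, Rps6 at chr4:86857368-86857467 (minus strand), Rpl27 at chr11:101442145-101442244 (plus) and Rps18 at chr17:33955666-33955765 (minus).
Rps6: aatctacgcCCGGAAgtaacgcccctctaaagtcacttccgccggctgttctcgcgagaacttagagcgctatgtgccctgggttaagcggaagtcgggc
Rpl27: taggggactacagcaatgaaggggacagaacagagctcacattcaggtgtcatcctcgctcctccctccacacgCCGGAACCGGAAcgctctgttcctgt
Rps18: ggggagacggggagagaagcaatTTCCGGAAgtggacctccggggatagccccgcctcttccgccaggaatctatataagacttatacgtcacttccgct
Rps6 holds the motif once in this window, Rpl27 holds it as a tandem pair and Rps18 holds it on both strands around 1 site.

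The 84 members took 3.98% of 87272191 reads in untreated WT, 3.44% of 85423156 in untreated KO, 3.34% of 89069900 in fatty acid-treated WT and 4.56% of 97364292 in fatty acid-treated KO. The median FPKM of the 80 compared members was 539, 451, 440 and 619 in the same order. The KO library with fatty acids was thus the highest and the WT library with fatty acids the lowest by both measures. Of protein-coding reads alone the members took 4.43%, 3.72%, 3.87% and 4.83%, with untreated KO the lowest. Of the FPKM sum they took 6.62%, 6.83%, 4.96% and 8.97%, with untreated KO above untreated WT. Fewer cells of a type and less RNA per cell cannot be told apart in such bulk samples. Dusp6 itself was at FPKM 40.7 in untreated WT, 1.42 in untreated KO, 77.1 in fatty acid-treated WT and 1.11 in fatty acid-treated KO, lower in both KO libraries.

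Levels differed widely between members. All 80 had a mean FPKM of at least 50, 77 of at least 100, 72 of at least 200 and 40 of at least 500. Rpl12, which sits at the base of the ribosomal stalk, had the highest mean level and was the only member with a mean above 1000, at FPKM 1026 in untreated WT, 796 in untreated KO, 1076 in fatty acid-treated WT and 1143 in fatty acid-treated KO. Rpl26 and the stalk protein Rplp1 came next, with means of 962 and 948. The order of these neighbours depended on the library, since Rplp1 exceeded Rpl12 and Rpl26 in untreated KO, where it was at 903 beside 796 and 776. The lowest means belonged to Rpl7l1 (62.4), Rps15a (68.4) and Rpl22 (93.7).

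**Figure D1:**
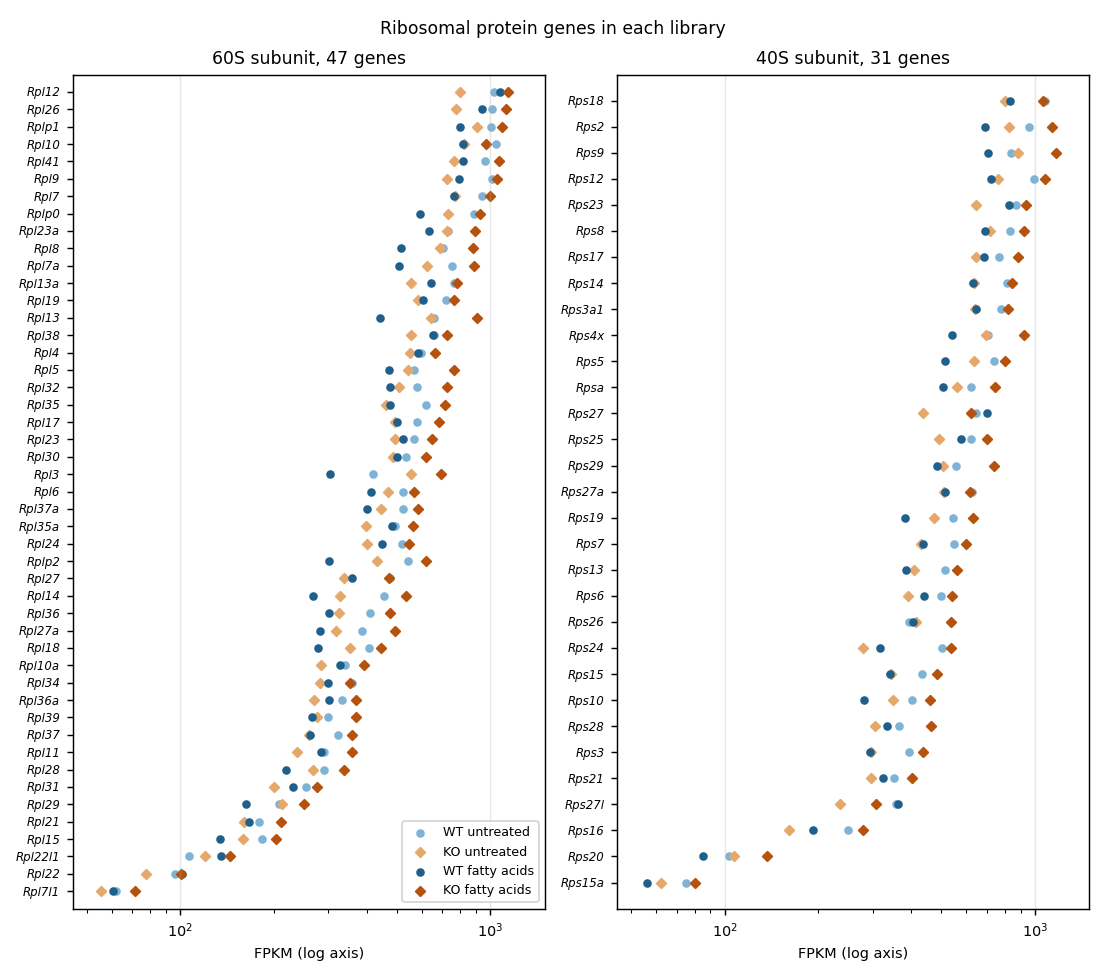
FPKM (log axis) of 47 compared 60S genes and 31 compared 40S genes in the 4 libraries, 1 point per library, with genes ordered by their mean. The KO library with fatty acids gives the highest point for most genes (72 of all 80 compared). On this scale 70.6% of all genes were higher in KO than in WT with fatty acids.

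By FPKM, 72 of 80 members were highest in fatty acid-treated KO, 5 in untreated WT and 3 in fatty acid-treated WT. The lowest library was fatty acid-treated WT for 40 members, untreated KO for 38 and untreated WT for 2. These shares were not counted over all genes. On this deposited scale 70.6% of all 11927 genes were higher in KO than in WT with fatty acids. With fatty acids against untreated, 56.9% of all genes were higher in KO and 28.6% in WT. For 77 of 80 members the highest library was less than 2-fold above the lowest, a share likewise not counted over all genes. The other members were Rpl3 (2.29-fold), Rpl13 (2.06-fold) and Rplp2 (2.05-fold). Both subunits kept nearly the same proportion, the summed FPKM of 60S genes over that of 40S genes being 1.37 in untreated WT, 1.41 in untreated KO, 1.38 in fatty acid-treated WT and 1.37 in fatty acid-treated KO.

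Levels of genes in general were displaced between libraries on the deposited scale, so each difference in log2(FPKM + 1) is given relative to the median gene, the median difference over 5903 genes at FPKM 5 or more in all 4 libraries. That median gene was displaced by 0.00 between KO and WT untreated, by 0.38 between KO and WT with fatty acids, by -0.26 between fatty acids and untreated in WT and by 0.16 in KO. A relative difference of 1 is 2-fold, the size used as a rule here in place of a test.

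Without fatty acids, ribosomal protein genes were lower in KO than in WT relative to the median gene. When every library was rescaled to an equal FPKM sum, without centring on the median gene, their median was 0.034, with 48 of 80 above 0. On that equal-sum scale the median over all genes was 0.33, with 78.8% above 0, so the members' median stayed below that of all genes. Relative to the median gene, 74 of 80 members were below and 6 above, beside 42.7% and 57.3% of all 11927 genes. Their median was -0.28 (range -0.85 to 0.40), beside 0.08 over all genes. No member was past 2-fold in either direction, beside 3.55% of all genes higher and 2.1% lower. At 1.5-fold, 3 members were lower (Rps16, Rps24 and Rps27l) and 0 higher, beside 6.73% and 13.7%. Summed over members, reads scaled to library size (CPM) in KO were 0.866 times those in WT, with an exact binomial 95% interval of 0.864 to 0.867 that covers counting error only.

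The shift was shared by the subunits, with a median of -0.27 over the 60S genes and -0.29 over the 40S genes. Rps16, a 40S protein of the subunit head, was at FPKM 250.1 in untreated WT, 161 in untreated KO, 193 in fatty acid-treated WT and 279.8 in fatty acid-treated KO. Its relative difference was -0.63 untreated, with a CPM ratio of 0.664 (0.647 to 0.681), and 0.16 with fatty acids. Rpl27, Rpl9, Rpl14, Rpl13a and Rpl35 followed, between -0.49 and -0.43. The stalk proteins, which recruit the elongation factors, stood at -0.28 for Rplp0, -0.15 for Rplp1 and -0.33 for Rplp2. Rps6, the S6 kinase substrate, stood at -0.35, Rpsa at -0.14, and Rps27a, made as a fusion with ubiquitin, at -0.30.

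The 6 members above the median gene were Rpl3 (0.40), Rpl22l1 (0.16), Rps9 (0.07), Rps26 (0.07), Rps20 (0.05) and Rpl29 (0.03). Rpl3, a core 60S protein next to the peptidyl transferase centre (chr15:80077781-80083406), was at FPKM 420 in untreated WT, 553 in untreated KO, 303 in fatty acid-treated WT and 693 in fatty acid-treated KO. Both KO libraries were above both WT libraries. No other member had a higher relative difference in either genotype comparison, and Rpl3 reached 0.81 with fatty acids, where its CPM ratio was 2.32 (2.30 to 2.35). The processed pseudogene Rpl3-ps1 took 1452, 2071, 942 and 2825 reads in the same order, which is 2.19% to 2.76% of the reads of Rpl3.

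With fatty acids in both genotypes, the members as a group lay close to the median gene. KO minus WT had a median of 0.079 (range -0.61 to 0.81), with 49 members above and 31 below, beside -0.064 over all genes, of which 45% were above and 55% below. Rescaled to an equal FPKM sum, all 80 were higher in KO (median 0.85, 24 members past 2-fold), beside 83.7% of all genes (median 0.62, 24.3% past 2-fold). On the deposited scale 77 members were higher (median 0.46), beside 70.6% of all genes (median 0.31). No member was past 2-fold, beside 3.12% of all genes higher and 8.43% lower. At 1.5-fold, 4 members were higher (Rpl3, Rpl13, Rpl14 and Rplp2) and 1 lower (Rps27l), beside 11.1% and 19.7% of all genes. Before centring, the summed CPM of members in KO was 1.36 times that in WT (counting interval 1.36 to 1.37), which is 0.073 on the log2 scale above the median gene.

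Spread between members was wider in this comparison than without fatty acids. The middle 50% ran from -0.087 to 0.25, beside -0.35 to -0.17 untreated. The 60S median was 0.025 and the 40S median 0.13. The stalk proteins were apart from each other, with Rplp2 at 0.65, Rplp0 at 0.27 and Rplp1 at 0.078. Rpl13 was at FPKM 656 in untreated WT, 641 in untreated KO, 441 in fatty acid-treated WT and 907 in fatty acid-treated KO, a relative difference of 0.66 with fatty acids and -0.035 without. Rpl27a, Rpl7a, Rps4x and Rpl8 had 0.40 to 0.43. Low members were Rps27l (-0.61), Rps27 (-0.56), Rpl22 (-0.38), Rpl12 (-0.29), Rpl22l1 (-0.28) and Rpl38 (-0.22).

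**Figure D2:**
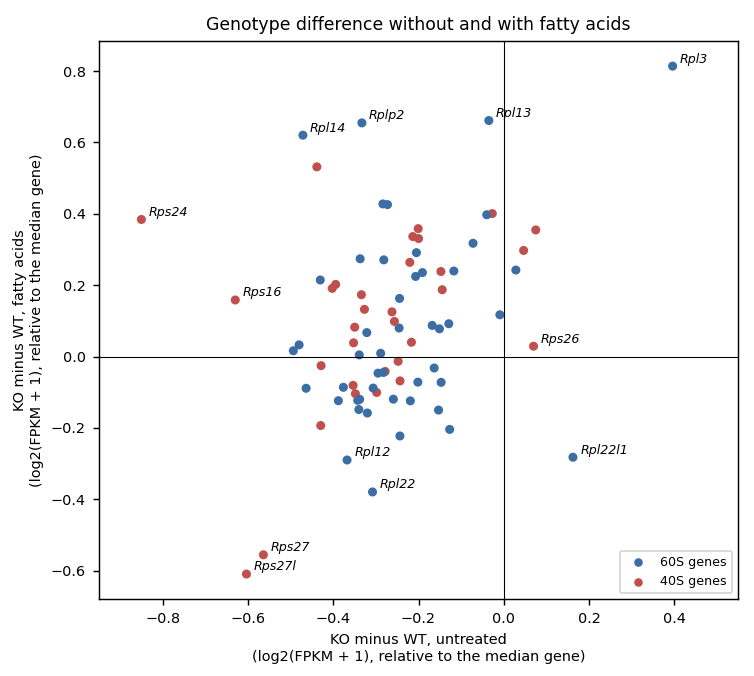
Relative difference in log2(FPKM + 1) between KO and WT without fatty acids (horizontal axis) and with fatty acids (vertical axis) for the 80 compared members, 60S in blue and 40S in red. Most points lie left of 0, Rpl3 is at the top right and Rps27 and Rps27l at the bottom left. Rescaled to an equal FPKM sum without centring on the median gene, 48 of 80 were above 0 without fatty acids, beside 78.8% of all genes.

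The comparisons of KO with WT share no library. Of the 80 members, 44 were below the median gene without fatty acids and above it with them, 30 were below it in both, 5 were above it in both (Rpl3, Rpl29, Rps9, Rps20 and Rps26) and Rpl22l1 alone was above it without and below it with fatty acids. The shares of all genes in these classes were not counted. Taken singly, 42.7% of all 11927 genes were below the median gene without fatty acids and 45% were above it with them. Across members the differences were weakly related (Pearson r 0.30, Spearman rho 0.28, n = 80 genes that share the same libraries, given as a description).

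In WT cells, fatty acids left the members spread around the median gene. The median of fatty acids minus untreated was -0.029 (range -0.58 to 0.60), with 35 members above, 44 below and 1 at the median gene, beside 0.033 over all genes, of which 53.6% were above. On read counts the median was 0.00041, and rescaled to an equal FPKM sum it was -0.42, with 1 member above, beside -0.33 over all genes and 21.8% above. No member was past 2-fold, beside 3.57% of all genes higher and 0.654% lower. Rpl22l1 was the only member past 1.5-fold, beside 11.7% of all genes higher and 5.09% lower. The 60S median was 0.00 and the 40S median -0.052. Low members were Rplp2 (-0.58), Rpl14 (-0.50), Rplp0 (-0.32), Rpl13 (-0.31) and Rpl7a (-0.31). High members were Rpl22l1 (0.60), Rps27 (0.38), Rpl22 (0.34), Rpl12 (0.33), Rps26 (0.30) and Rps27l (0.28). The summed CPM with fatty acids was 0.840 times that without (0.839 to 0.841).

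In KO cells, all 80 compared members were above the median gene with fatty acids, beside 37.9% of all genes above and 62.1% below. Their median was 0.26 and their range 0.067 to 0.79, narrow beside the other comparisons, while the median over all genes was -0.098. The KO response of the group stayed above 0 under every scaling run (median 0.10 to 0.46), with 66 to 80 members above. No member was past 2-fold, beside 0.101% of all genes higher and 5.05% lower. At 1.5-fold, 3 members were higher, Rps24 and Rps16 among them, beside 0.763%. Rps24 set the top of the range at 0.79. By reads Rps24 was at 0.24 and the highest member at 0.63, with 2 members past 1.5-fold, beside 276 of 11857 genes. The 60S median was 0.25 and the 40S median 0.28. The summed CPM with fatty acids was 1.32 times that without (1.32 to 1.33).

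Rps16, the 40S head protein that was low in untreated KO, had a KO response of 0.63, with a CPM ratio of 1.71 (1.67 to 1.75). Rpl14 (0.55), Rpl27a (0.47), Rpl35 (0.47) and Rps28 (0.43) were also high. Rpl11 and Rpl5, which bind Mdm2 as part of a free ribonucleoprotein when ribosome assembly is disturbed, had responses of 0.42 and 0.33 by FPKM. By reads they were at 0.28 and 0.31, beside a median of 0.25 over members. By FPKM, Rps6 was at 0.30, Rpsa at 0.25, Rplp0 at 0.18 and Rps27a at 0.12. Low in this range were Rpl29 and Rpl10, each at 0.07, and Rpl4, which lines the exit tunnel, at 0.10.

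**Figure D3:**
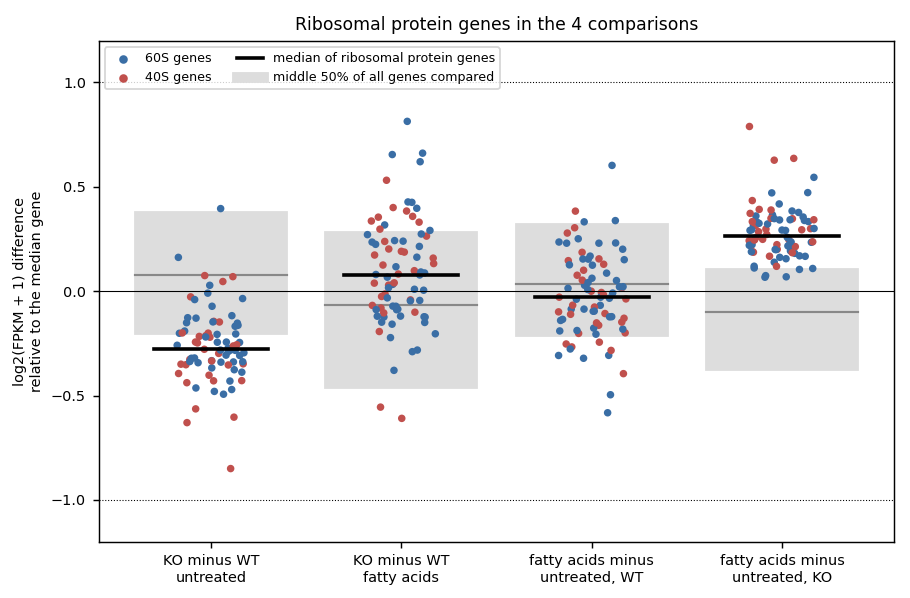
Difference in log2(FPKM + 1) relative to the median gene for each of the 80 members in the 4 comparisons, 60S in blue and 40S in red. Black bars are the members' medians (-0.28, 0.079, -0.029 and 0.26). Grey boxes hold the middle 50% of all 11927 genes with their median as a grey line, and dotted lines mark 2-fold. Rescaled to an equal FPKM sum without centring on the median gene, the first median was 0.034, beside 0.33 over all genes.

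The fatty acid response in KO minus that in WT gives the dependence on genotype, with every library entering once. Its median over members was 0.28, beside -0.20 over all genes. It was above 0 for 72 of 80 members, beside 35.7% of all genes. Rps24 (1.18) and Rpl14 (1.04) were past 2-fold, beside 1.14% of all genes. At 1.5-fold there were 9 members, beside 6.16%. Rpl14 (chr9:120571517-120574653), a 60S protein, was at FPKM 455 in untreated WT, 328 in untreated KO, 268 in fatty acid-treated WT and 536 in fatty acid-treated KO. Its WT response was -0.50 and its KO response 0.55. The stalk protein Rplp2 (chr7:141447651-141451359) was at 544, 432, 302 and 619, with responses of -0.58 and 0.36. In both genes the order of the genotypes turned over between untreated and fatty acid cultures. By read counts the values of Rpl14 (1.02) and Rplp2 (0.92) stayed close to those by FPKM (1.04 and 0.94).

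Rps24, whose transcripts are spliced in several forms near their end, was an exception. FPKM put it at 502 in untreated WT, 278 in untreated KO, 318 in fatty acid-treated WT and 539 in fatty acid-treated KO. Its read counts were 52139, 43982, 52076 and 65572. The relative difference of KO minus WT untreated was -0.85 by FPKM and -0.26 by reads, and the response difference was 1.18 by FPKM and 0.03 by reads. The transcript length implied by reads over FPKM was 1057 bases in untreated WT, 1597 in untreated KO, 1589 in fatty acid-treated WT and 1095 in fatty acid-treated KO. The low FPKM of Rps24 thus coincided with a longer length assigned upstream, and its place past 2-fold did not hold on reads. Rpl5 and Rpl17 were the other members with FPKM and read differences over 0.2 apart in some comparison. For Rpl5 the KO minus WT difference with fatty acids was 0.32 by FPKM and -0.02 by reads. In 76 of 80 members the measures were within 0.1 in every comparison.

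**Figure D4:**
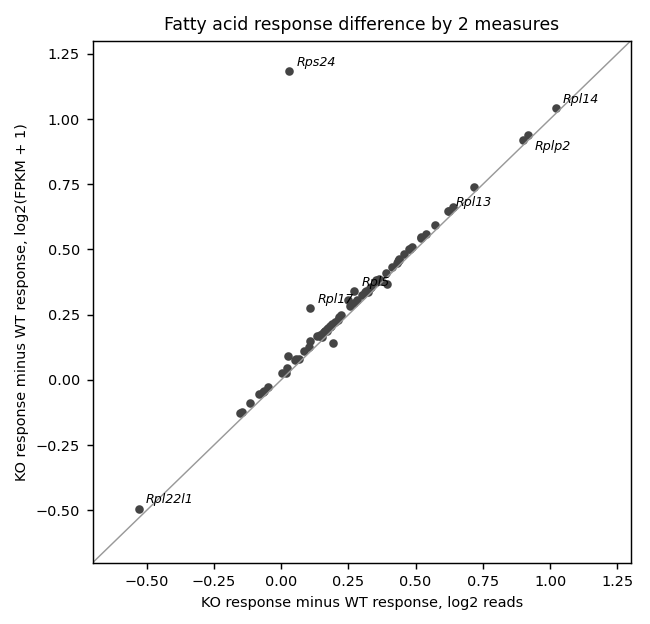
Fatty acid response in KO minus that in WT for the 80 members, from log2 read counts (horizontal axis) and from log2(FPKM + 1) (vertical axis), each relative to the median gene, with the line of equal values. Rps24 lies far above the line at 1.18 against 0.03, and most others lie on it.

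In 8 members the response was smaller in KO than in WT. These were Rpl22l1 (-0.49), Rpl4 (-0.13), Rpl22 (-0.12), Rps26 (-0.09), Rps27l (-0.06), Rpl7l1 (-0.05), Rps27 (-0.04) and Rpl38 (-0.03). Among them were all 3 compared genes that code for a paralogue of another ribosomal protein.

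Rps27l and Rps27 code for nearly identical 40S proteins that can replace each other, and Rps27l is also a target of p53. Rps27 was at FPKM 646 in untreated WT, 438 in untreated KO, 703 in fatty acid-treated WT and 621 in fatty acid-treated KO. Rps27l was at 358, 235, 362 and 308. Both were lower in KO than in WT by similar amounts without fatty acids (-0.56 and -0.60) and with them (-0.56 and -0.61). The level of Rps27l was 55.4%, 53.8%, 51.5% and 49.6% of that of Rps27. The deposited files do not say how reads that fit several genes were counted, so the values of close copies are uncertain to that extent.

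Rpl22 is an RNA-binding 60S protein that in mice represses the mRNA of its paralogue Rpl22l1. Rpl22 was at FPKM 95.8 in untreated WT, 77.3 in untreated KO, 101 in fatty acid-treated WT and 101 in fatty acid-treated KO. Rpl22l1 was at 107, 120, 136 and 145. The level of Rpl22l1 was 112% of that of Rpl22 in untreated WT and 155%, 134% and 144% in the other libraries, so that WT untreated was the lowest of the 4. On reads, the ratio was 25.4% (24.7% to 26.2%) in untreated WT and 35.3% (34.3% to 36.4%) in untreated KO. Rpl7l1 stayed at 6.61% to 7.96% of the level of Rpl7.

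The 4 members left out by the filter are paralogues known mainly from muscle (Rpl3l) and male germ cells (Rpl10l and Rpl39l), and Rpl32l. Rpl3l and Rpl10l had 0 reads in every library, which allows for at most 3 reads each by counting error. Rpl39l had 5 reads in untreated WT and 0 elsewhere. Rpl32l had 15 in untreated WT, 32 in untreated KO, 17 in fatty acid-treated WT and 29 in fatty acid-treated KO, beside 24740 to 40748 for Rpl32.

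Ribosomal protein genes with other symbols lay in the same range. Fau, the precursor of a 40S protein fused to a ubiquitin-like protein, had relative differences of 0.03 (KO minus WT untreated), 0.50 (KO minus WT with fatty acids), -0.11 (response in WT) and 0.32 (response in KO). Rack1, a scaffold on the 40S head, had -0.24, 0.12, -0.06 and 0.25. Both were thus above the median gene in fatty acid-treated KO.

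Of the members with a RefSeq promoter, 13 compared genes had the C with 4 further pyrimidines and 47 did not. Their medians were -0.32 and -0.29 for KO minus WT untreated, 0.13 and 0.033 with fatty acids, -0.12 and 0.00 for the response in WT, and 0.27 and 0.29 for the response in KO. TOP genes outside the ribosome, mostly elongation and initiation factors, had medians over 26 genes of -0.028, 0.18, -0.14 and 0.097 in the same order, and 14 of 26 were above the median gene in the KO response. One of them, Eef1a1, the most abundant elongation factor mRNA, had -0.23, -0.22, 0.25 and 0.20. Another, Pabpc1, the cytoplasmic poly(A)-binding protein, was at FPKM 119 in untreated WT, 263 in untreated KO, 76.6 in fatty acid-treated WT and 62.0 in fatty acid-treated KO, a KO response of -2.23.

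Genes whose products build ribosomes were looked at beside the members, and the differences between the lists were not tested. The 75 compared genes of ribosome biogenesis had a median of -0.18 in KO minus WT untreated, -0.19 with fatty acids, -0.0080 for the WT response and 0.011 for the KO response. In the KO response 41 of 75 were above the median gene, beside 37.9% of all genes, and 3 were lower by 2-fold or more, beside 5.05% of all genes. Of these 3, nucleolin (Ncl), an abundant nucleolar protein, was at FPKM 32.6 in untreated WT, 49.1 in untreated KO, 24.3 in fatty acid-treated WT and 10.7 in fatty acid-treated KO, a KO response of -2.26. Of 20 RNA polymerase I genes, 12 were above the median gene in the KO response, with a median of 0.060. The list of mTOR, S6 kinase and translation control genes had a KO response median of -0.21 over 36 genes. Larp1 was at FPKM 17.5, 26.2, 7.98 and 12.5 in that order of libraries, low in both fatty acid libraries.

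The 27 compared genes of the Mdm2 and p53 list, which holds known p53 targets, had medians of -0.21 for KO minus WT untreated and -0.60 with fatty acids, where 9 of 27 were lower by 2-fold or more and 0 higher, beside 8.43% and 3.12% of all genes. Mdm2 was at FPKM 92.0 in untreated WT, 46.4 in untreated KO, 110 in fatty acid-treated WT and 61.6 in fatty acid-treated KO. Trp53 was at 19.9, 18.2, 17.8 and 7.59. Both KO libraries were below both WT libraries for Mdm2, and likewise for Rps27 and Rps27l.

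Members' transcripts are short, with a median of 882 bases beside 2586 for the other genes at FPKM 5 or more in all 4 libraries, and other short transcripts lay on the same side of the median gene as the members in 2 comparisons. Among 477 other genes of up to 1000 bases, the median was -0.17 for KO minus WT untreated and 0.19 for the KO response, where 84.1% were above the median gene. The 51 members of that length had medians of -0.29 and 0.29. Other genes of over 4000 bases had 0.14 and -0.30. After adjustment for length and GC content by a spline over the genes at FPKM 5 or more in all 4 libraries, the members' median was -0.12 for KO minus WT untreated (19 above), 0.15 with fatty acids (56 above), -0.14 for the WT response (15 above) and 0.10 for the KO response (66 above). Of the difference of responses, 0.21 remained, with 69 of 80 members above 0. The 4 adjusted comparisons were each centred on the median of the genes at FPKM 5 or more in all 4 libraries. Shares of all genes above 0 were not counted after adjustment.

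**Figure D5:**
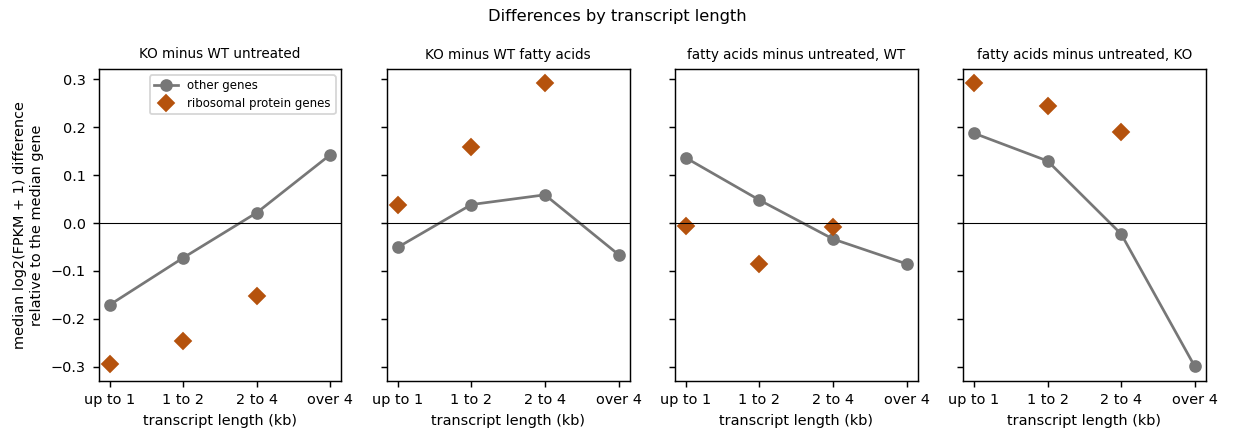
Median relative difference in log2(FPKM + 1) of ribosomal protein genes (diamonds) and other genes at FPKM 5 or more in all 4 libraries (grey line) by transcript length in the 4 comparisons. The longest class holds 1 member and shows no diamond, and the class of 2 to 4 kb rests on 5 members. In the KO response the grey line runs from 0.19 to -0.30 and members lie above it in each class shown.

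Other large sets of housekeeping genes were compared in the same way. The 78 mitochondrial ribosomal protein genes had medians of -0.16 (KO minus WT untreated), 0.026 (with fatty acids), 0.0014 (WT response) and 0.20 (KO response), with 64 of 78 above the median gene in the last. Nuclear genes of oxidative phosphorylation had -0.27, -0.15, 0.16 and 0.20, with 70 of 76 above in the last. Proteasome genes had -0.34, -0.044, -0.041 and 0.13, with 37 of 46 above. The cytosolic ribosomal protein genes thus had the highest KO response median of these 4 sets, and the differences between the sets were not tested.

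Markers of hepatocytes (6 of 6 at FPKM of at least 1 in every library) summed to FPKM 4681 in untreated WT, 6633 in untreated KO, 6125 in fatty acid-treated WT and 7422 in fatty acid-treated KO, a sum carried mostly by albumin (Alb, 2460, 4137, 3475 and 4336). Their relative differences went both ways. The median of KO minus WT was -0.0019 untreated and -0.44 with fatty acids, with 3 and 1 of 6 above and 2 lower by 2-fold in each. The urea cycle enzyme Cps1 was at FPKM 69.8, 22.0, 97.1 and 18.6 in the order of the sums and the tyrosine aminotransferase Tat at 40.3, 14.9, 49.6 and 14.7, both lower in the KO libraries. Kupffer cell and macrophage markers (8 to 9 of 10) summed to 42.5 in untreated WT, 82.0 in untreated KO, 98.7 in fatty acid-treated WT and 96.8 in fatty acid-treated KO. Sinusoidal endothelium markers (3 to 4 of 8) summed to 6.86 in untreated WT and to at most 17.9 elsewhere. Both sets were lowest in untreated WT, and their part in the members' values was not tested. Stellate cell markers (0 of 7) summed to at most 1.00, with Col1a1, Col1a2, Des and Lrat under 0.1 in all 4 libraries.

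Processed pseudogenes named after members, 222 in the table, took reads equal to 1.57%, 1.64%, 1.63% and 1.52% of the members' reads in untreated WT, untreated KO, fatty acid-treated WT and fatty acid-treated KO. Rpl15-ps3 took 17.6% to 18.9% of the reads of Rpl15. The summed share was nearly the same in every library, so that it moved little with the differences above. Single pseudogenes could move more. Rps16-ps2 took 7.42%, 10.4%, 8.57% and 7.78% of the reads of Rps16 in the same order of libraries, the most in untreated KO, where Rps16 was low.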

How the data were processed

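The 4 libraries were made from total RNA (0.5 µg) of primary hepatocytes from mice with the TruSeq Stranded Total RNA protocol, per the labels' protocols. The submitters' processing notes name the build mm10 and the tools StringTie 2.1.3b, HISAT2 2.1.0, Bowtie2, Trimmomatic 0.38 and FastQC 0.11.7, without their roles. The sources used here do not give the annotation, the counting method or its use of strand, so overlapping genes on opposite strands cannot be told apart. Per the file headers, the deposited table holds TPM, FPKM and read counts for each gene. The deposited read counts are whole and not normalized, the authors scaled the FPKM to length and library size, and the TPM deposited were not used for results.

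Genes that reached FPKM 1 in any library were kept, and log2(FPKM + 1), which understates changes of low genes, was compared relative to the median over genes at FPKM 5 or more in all 4 libraries. A 2-fold rule stood in place of a test. Exact binomial 95% intervals of CPM ratios cover counting error only, since reads are no independent molecules. Named were, per comparison, the 10 highest and 10 lowest members, the 3 highest and lowest by level, paralogue pairs, Rpl5, Rpl11, Rps6, Rplp0 to Rplp2, Rpsa and Rps27a, and up to 4 genes of each related list. Some genes of this rule are not reported here, and Larp1, Trp53 and genes outside the symbol rule were chosen after their values were seen. The members and lists were chosen with earlier results of these data known. Promoter letters and coordinates are from RefSeq (GRCm38.p6), and lengths and GC content from GENCODE M21 transcripts, found for 84 members and 94.4% of reference genes. Alternatives were other pseudocounts, filters, scalings (TMM with edgeR 4.0.16, DESeq2 1.42.0 size factors), read counts in place of FPKM, and a spline adjustment for length and GC content. Software was Python 3.11.15, numpy 2.4.6, pandas 2.3.3, scipy 1.17.1 and R 4.3.3. Steps were tested on simulated data.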

Additional observations from a re-analysis of the deposited data

Results flagged for a closer look

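In each of these results the values had opposite signs in the groups compared, and the difference between the groups was not tested, since each group holds 1 library. The median of KO minus WT over the 80 members was -0.28 without fatty acids and 0.079 with them, and the median fatty acid response was -0.029 in WT and 0.26 in KO. The WT response median is near 0, with 35 members above and 44 below, and on read counts it was 0.00041. Under an equal FPKM sum, which was not centred on the median gene, the untreated median was 0.034, beside 0.33 over all genes. The medians of KO minus WT then had the same sign. KO minus WT was -0.47 without and 0.62 with fatty acids for Rpl14, and -0.33 and 0.65 for Rplp2. The fatty acid response was -0.50 in WT and 0.55 in KO for Rpl14, and -0.58 and 0.36 for Rplp2. Apart from those under an equal FPKM sum or on read counts, all values are differences in log2(FPKM + 1) relative to the median gene. Single genes reported were among those displaced by more than a small set fold in opposite directions in both groups.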

How the results depend on the processing

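Values here are the members' medians in the order KO minus WT untreated, KO minus WT with fatty acids, WT response, KO response, and KO response minus WT response. They are given where they moved by more than a tolerance of 0.020 to 0.030 on the log2 scale, depending on the comparison. That tolerance comes from the typical counting interval of a single member and is not the counting error of a median. Rescaling to an equal FPKM sum, without centring on the median gene, gave 0.034, 0.85, -0.42, 0.38 and 0.79. The medians over all genes on that scale were 0.33, 0.62, -0.33, 0.025 and 0.28. There, 24 members in the second and 15 in the last were 2-fold higher, beside 24.3% and 7.98% of all genes. The deposited scale gave 0.46, -0.29, 0.43 and 0.70 for the last 4, with 3 members 2-fold higher in the second and 9 in the last, beside 9.83% and 6.35% of all genes. Quantile normalization gave -0.22, 0.11, -0.23, 0.15 and 0.35. TMM on reads gave -0.39, 0.13, -0.067, 0.46 and 0.49. DESeq2 size factors gave -0.36, 0.12, 0.44 and 0.45 for all but the WT response. Adjustment for GC content and length gave -0.12, 0.15, -0.14, 0.10 and 0.21, with 1 member 2-fold higher in the last. Scaling without the 50 most abundant genes gave 0.13 for the second, -0.14 for the WT response and 0.38 for the last, with 4 members 2-fold higher. The shares of all genes past 2-fold were not counted for these settings. A pseudocount of 0.1 gave 0.057 for the second, and 5 gave 0.15, -0.078, 0.29 and 0.35 for the last 4. No filter gave 0.054 for the second and 0.24 for the last. Reads centred on the median gene, added after seeing the data, gave 0.021 for the second, 0.00041 for the WT response and 0.22 for the last. There, 1 member was 2-fold higher in the last, beside 2.83% of all genes. Without Rps24, Rpl5 and Rpl17, also added later, the last was 0.25, again with 1, beside 1.14% of all 11927 genes. The 1.5-fold rule gave 3 lower members untreated, 4 higher and 1 lower in the second, 1 and 3 higher for the WT and KO responses, and 9 for the last. Causes were not tested. The KO response median was above 0 under every setting run (0.10 to 0.46), as was the difference of responses (0.21 to 0.79). No paired analysis was possible because each group holds 1 library and the labels carry no replicate numbers.

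With 1 library per group the spread between cultures is unknown, and the depth of 85423156 to 97364292 reads limits counting error only.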
